A study of Mus musculus with 6 samples.

Results

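The genes described here are 38 genes of glycolysis and of the response to low oxygen, out of 24054 in the deposited table. They were chosen by gene symbol with earlier results of these data known, and all 38 passed the filter on low counts. Where members are set beside all genes below, the contrast describes this chosen set and does not test it. RNA was sequenced from mouse bone marrow-derived macrophages, cells grown out of marrow over 7 days in medium conditioned by L929 fibroblasts, which supplies the macrophage growth factor. The 6 libraries were 2 of Kindlin3-integrin mutant cells given 50 µg/ml oxidised low-density lipoprotein (oxLDL) for 24 hours, 2 of untreated mutant cells, 1 of wild type cells given the same oxLDL, and 1 of untreated wild type cells. Both genotypes are on the C57BL/6 background, the mutant libraries are titled KI, and the labels give neither the allele, the age of the mice nor whether cells of several mice were pooled. The labels do not state that the libraries of a group are separate animals or cultures. The p-values therefore reflect the scatter among the libraries at hand, and this scatter may be technical. The series set mutant against wild type macrophages under oxLDL, and the comparisons below are oxLDL against untreated in both genotypes together, in the mutant alone and in the wild type alone, mutant against wild type, and the difference between the genotypes in the oxLDL response.

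Glycolysis splits glucose into pyruvate in the cytosol. Early steps of it are catalysed by hexokinase and phosphofructokinase, each made as several isozymes from separate genes. When oxygen is scarce, the prolyl hydroxylases that mark HIF-1α for destruction slow down. The stabilised factor then binds short DNA elements, commonly with the core ACGTG. It raises transcription of glucose transporters, glycolytic enzymes, lactate export, pyruvate dehydrogenase kinases and secreted factors such as VEGF-A. In macrophages the same factor is also stabilised by inflammatory signals at normal oxygen, and glycolysis fuels their activated state.

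Libraries held 24273551 and 19684990 assigned reads in mutant oxLDL, 11281692 and 13597908 in mutant untreated, 15807998 in wild type oxLDL and 21081706 in wild type untreated, so that 3 counts, the limit taken for a gene not seen, correspond to 0.122 to 0.265 CPM. CPM are counts scaled to library size with TMM factors, a level per gene and not per transcript length. All 11 macrophage markers in the table were detected at 1 CPM or more. Their summed level was 20420 and 15680 (mutant) and 11280 CPM (wild type) with oxLDL, against 31360 and 25150 (mutant) and 20930 CPM (wild type) untreated. Lyz2 alone made up 15160 and 10610 (mutant) and 5686 CPM (wild type) of it with oxLDL, against 20970 and 15490 (mutant) and 8900 CPM (wild type) untreated, and single markers differed in direction, Cd68 being at 2136 and 1884 (mutant) and 1801 CPM (wild type) with oxLDL, against 1337 and 966 (mutant) and 858 CPM (wild type) untreated. Neutrophil markers summed to 45.2 CPM in wild type untreated and to between 5.18 and 7.36 CPM in the other 5 libraries, lymphocyte markers to at most 0.265 CPM (with Cd3e, Nkg7 and Ncr1 among those at 0), and erythroid markers to at most 0.297 CPM (with Hba-a2, Hbb-bs and Hbb-bt among those at 0). Transcripts of pancreatic genes, mostly of digestive enzymes but also the insulin genes Ins1 and Ins2, were summed too. They gave 179 and 142 CPM in the mutant oxLDL libraries, 241 CPM in wild type untreated, and at most 0.0708 CPM in the other 3 libraries. The part of these differences in the results below was not tested, and in bulk RNA fewer cells of a type and less RNA per cell cannot be told apart. Fermt3, which encodes kindlin-3, stood at 146 and 153 (mutant) and 188 CPM (wild type) with oxLDL, against 241 and 249 (mutant) and 403 CPM (wild type) untreated, and its level alone does not check a mutant protein.

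The promoters of the members are shown first because ACGTG is a common core of the elements that HIF binds. RefSeq windows running from 250 bases before to 50 bases after the transcript start (build GRCm38.p6) were found for 35 of the 38 genes, and Bnip3l, Ndrg1 and Slc2a3 had none. ACGTG was searched on both strands, where it reads CACGT on the reverse strand, and a palindromic CACGTG counts as a pair of overlapping matches. A gene was counted when 1 or more of its windows held it, which was so for 26 of the 35 genes (74.3%), against 21.8% of the 27025 genes with a window and 29.2% of the 9550 tested genes with a window. The members have more windows per gene, and window by window it was 30 of 53, against 19.6% of all 32851. Ldha had the most, 5 matches at 3 sites, followed by Hif1a and Pfkm with 3 matches at 2 sites each, of which Hif1a is printed because it encodes the factor itself. P4ha2 and Ero1l, printed beside them, have 1 match each in the printed bases, and were picked after their response to oxLDL had been seen. Each line gives the 250 bases before the start, 5′ to 3′ on the gene's own strand, with ACGTG and CACGT in capitals.
Ldha, plus strand, chr7:46845554-46845803: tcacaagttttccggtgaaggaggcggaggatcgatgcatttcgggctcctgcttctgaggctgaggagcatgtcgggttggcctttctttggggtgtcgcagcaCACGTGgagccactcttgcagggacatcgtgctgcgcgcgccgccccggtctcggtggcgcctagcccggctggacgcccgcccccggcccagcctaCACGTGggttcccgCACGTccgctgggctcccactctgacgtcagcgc
Hif1a, plus strand, chr12:73907617-73907866: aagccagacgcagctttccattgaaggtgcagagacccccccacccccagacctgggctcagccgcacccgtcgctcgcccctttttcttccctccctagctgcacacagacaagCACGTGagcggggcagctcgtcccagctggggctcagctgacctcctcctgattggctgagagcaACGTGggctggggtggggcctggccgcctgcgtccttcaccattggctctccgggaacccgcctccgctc
P4ha2, plus strand, chr11:54100674-54100923: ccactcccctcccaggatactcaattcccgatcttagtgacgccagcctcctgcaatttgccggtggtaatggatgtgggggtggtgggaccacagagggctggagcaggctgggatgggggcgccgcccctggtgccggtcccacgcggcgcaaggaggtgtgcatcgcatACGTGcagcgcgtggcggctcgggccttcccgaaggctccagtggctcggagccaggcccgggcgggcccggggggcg
Ero1l, minus strand, chr14:45318573-45318822: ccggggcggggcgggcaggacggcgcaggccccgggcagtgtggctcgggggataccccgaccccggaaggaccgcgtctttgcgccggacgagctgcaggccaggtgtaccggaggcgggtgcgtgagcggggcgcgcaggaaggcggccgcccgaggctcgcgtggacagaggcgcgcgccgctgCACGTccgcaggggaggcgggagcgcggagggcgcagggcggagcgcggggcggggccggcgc
Ldha and Hif1a were not among the genes that changed with oxLDL, while P4ha2 and Ero1l were. Split by the oxLDL call described next, ACGTG was present in 11 of the 13 genes that rose and had a window, in 1 of the 3 that fell and in 14 of the 19 that did not pass the test. A match describes letters in the window and says nothing about whether the factor was bound there. Other forms of the core were not searched.

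Across both genotypes, 3 oxLDL libraries against 3 untreated, 14 of the 38 genes rose, 4 fell and 20 did not pass the test (edgeR quasi-likelihood test with genotype as a term, Benjamini-Hochberg adjusted over 12689 genes, threshold 0.05). Over all genes tested 19.1% rose and 21.4% fell, 40.5% in all, and among the members 36.8% rose and 10.5% fell, 47.4% in all. The genes that rose were Hk1, Hk3, Pfkp, Aldoa, Pgk1, Pgam1, Pkm, Bnip3l, Egln3, P4ha2, Ero1l, Vegfa, Kdm3a and Mxi1, and those that fell were Aldoc, Pfkfb4, Ndrg1 and Adm. The median log2 fold change was 0.205 over the 38 genes and 0.006 over all genes tested. The steps from glucose transport to lactate and pyruvate control, 21 of the 38 genes, held 7 that rose, 1 that fell and 13 that did not pass. Summed over the 38 genes, the level was 9374 and 9919 (mutant) and 11074 CPM (wild type) with oxLDL, against 7488 and 8487 (mutant) and 7521 CPM (wild type) untreated. The sum was higher in each of the 3 oxLDL libraries than in any untreated library. The most abundant members weigh most in it, with Gapdh at 1935, Pkm at 1797 and Aldoa at 1242 CPM in mutant oxLDL replicate 1. Gene by gene, all 3 oxLDL libraries lay above all 3 untreated ones for 18 members and below them for 3, against 24.5% and 23.3% of all genes tested.

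**Figure D1:**
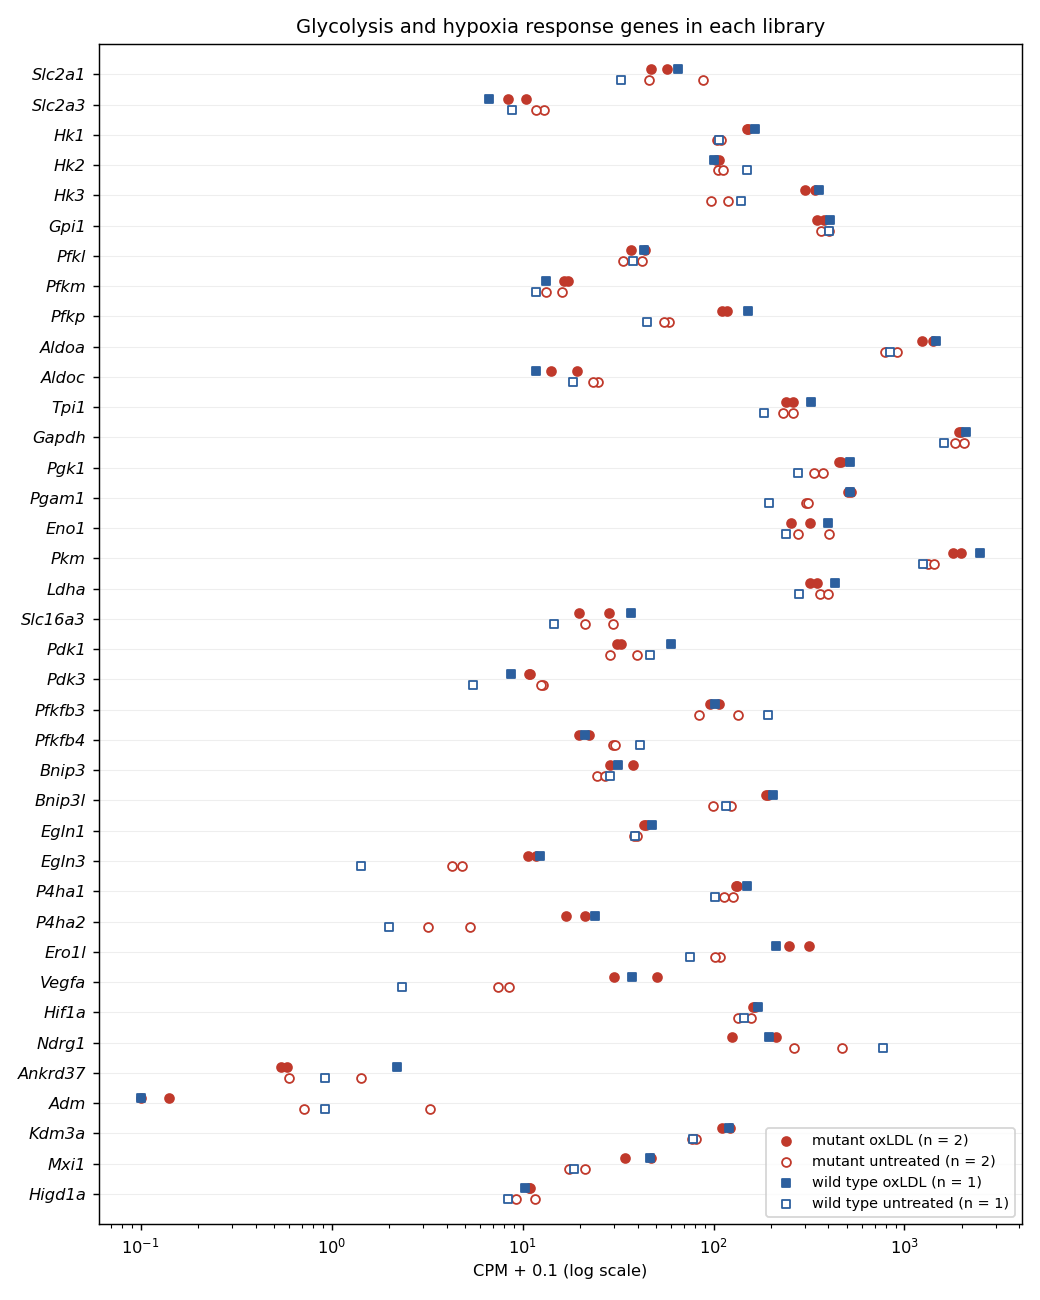
Level of each of the 38 genes in each of the 6 libraries, as CPM plus 0.1 on a log scale, ordered from glucose transport to the other hypoxia genes; filled symbols are oxLDL, open ones untreated. Vegfa, P4ha2 and Egln3 stand apart by treatment with all oxLDL points above all untreated points, and Gapdh and Gpi1 have overlapping points.

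**Figure D2:**
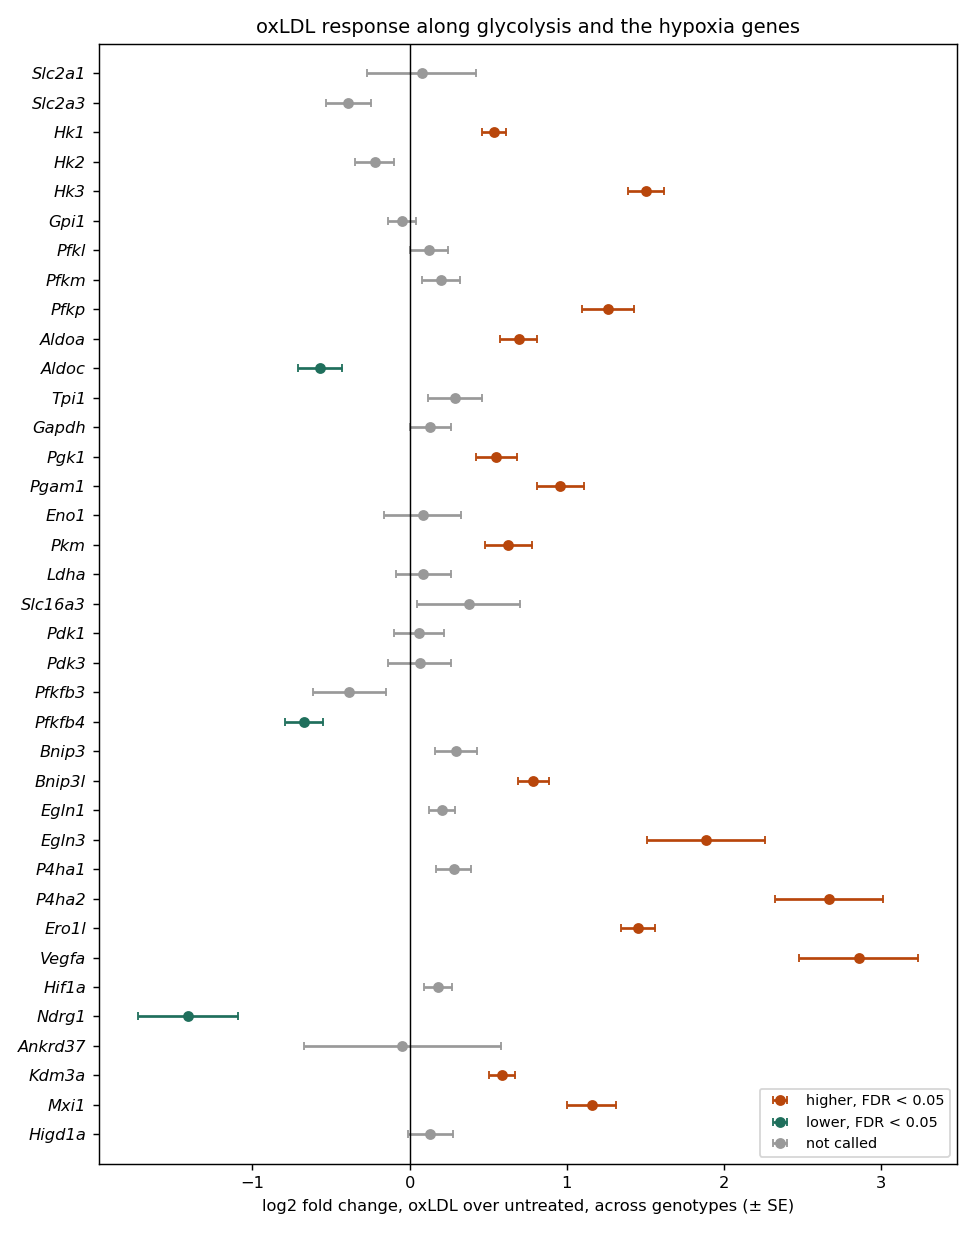
Log2 fold change of oxLDL over untreated across both genotypes with its standard error, for the members other than Adm, whose oxLDL counts are near 0. The points run from Ndrg1 at −1.41 to Vegfa at 2.86, with the genes that passed the edgeR test in orange (higher) or green (lower) and the others in grey.

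Of the glucose transporters, Slc2a1 and Slc2a3 both missed the threshold. Slc2a1, the transporter that many cells induce under HIF, was at 47.1 and 57.3 (mutant) and 64.75 CPM (wild type) with oxLDL, against 46.0 and 88.0 (mutant) and 32.7 CPM (wild type) untreated. The treatments overlapped, and the log2 fold change was 0.08 ± 0.346 (SE, n = 3 each; edgeR adjusted p = 0.881). Slc2a3, the high-affinity transporter, was at 10.3 and 8.27 (mutant) and 6.58 CPM (wild type) with oxLDL, against 12.8 and 11.6 (mutant) and 8.70 CPM (wild type) untreated. Within each genotype the oxLDL values lay below the untreated ones, and the log2 fold change of −0.39 ± 0.143 did not pass (edgeR adjusted p = 0.0707).

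Hexokinase, which traps glucose in the cell as its phosphate, is made from Hk1, Hk2 and Hk3, and 2 of the 3 rose. Hk3 stood at 302 and 342 (mutant) and 356 CPM (wild type) with oxLDL, against 118 and 97.4 (mutant) and 139 CPM (wild type) untreated. Over both genotypes the averages were 333 ± 27.9 CPM with oxLDL and 118 ± 20.8 CPM untreated (SD, n = 3 each), a fold of 2.83 and a log2 fold change of 1.50 ± 0.114 (edgeR adjusted p = 0.000256). Every oxLDL library was above every untreated one. Hk1, the housekeeping isozyme, was at 151 and 149 (mutant) and 164 CPM (wild type) with oxLDL, against 109 and 104 (mutant) and 106 CPM (wild type) untreated. It too separated by treatment, with a log2 fold change of 0.54 ± 0.0756 (edgeR adjusted p = 0.00232). Hk2, the isozyme known as HIF-inducible, was at 107 and 103 (mutant) and 100.1 CPM (wild type) with oxLDL, against 105 and 112 (mutant) and 149 CPM (wild type) untreated. Its log2 fold change of −0.22 ± 0.123 did not pass (edgeR adjusted p = 0.198), the mutant values overlapping between treatments and the wild type value being lower with oxLDL.

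In the upper part of the pathway, 7 genes from Gpi1 to Tpi1, 2 rose, 1 fell and 4 did not pass. Pfkp, the platelet-type phosphofructokinase, measured 118 and 110.2 (mutant) and 152 CPM (wild type) with oxLDL, against 58.3 and 55.2 (mutant) and 44.55 CPM (wild type) untreated. All oxLDL libraries were above all untreated ones, and the log2 fold change was 1.26 ± 0.165, a fold of 2.40 (edgeR adjusted p = 0.00176). Pfkp shares 17.4% of its exonic bases with the antisense gene Pitrm1, which stood at 124 and 113 (mutant) and 106 CPM (wild type) with oxLDL, against 82.9 and 81.5 (mutant) and 70.6 CPM (wild type) untreated. The library kit marks strand, no source used here gives the strand setting of the counting, and the part of Pitrm1 in the Pfkp value was not tested. Aldoa, the muscle-type aldolase, was at 1242 and 1417 (mutant) and 1469 CPM (wild type) with oxLDL, against 793 and 918 (mutant) and 838 CPM (wild type) untreated. The treatments did not overlap, with a log2 fold change of 0.69 ± 0.119 (edgeR adjusted p = 0.00475).

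Aldoc, the brain-type aldolase, was low, at 19.2 and 14.0 (mutant) and 11.6 CPM (wild type) with oxLDL, against 24.8 and 23.3 (mutant) and 18.2 CPM (wild type) untreated. The highest oxLDL value overlapped the lowest untreated one, and the log2 fold change of −0.57 ± 0.143 passed (edgeR adjusted p = 0.0203). The call was lost without either mutant untreated library or either wild type library (adjusted p between 0.0614 and 0.0704). Gpi1, Pfkl, Pfkm and Tpi1, which isomerise sugar phosphates or are the other phosphofructokinase isozymes, had log2 fold changes between −0.05 and 0.29 and did not pass.

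The isozymes were compared with each other per kilobase of transcript, so that longer transcripts do not count for more. Hk3 held 60.5% and 63.9% of summed hexokinase in mutant oxLDL and 63.7% in wild type oxLDL, against 42.1% and 37.4% in mutant untreated and 42.0% in wild type untreated. The share of Hk2 was 15.5% and 13.9% in mutant oxLDL and 12.9% in wild type oxLDL, against 27.0% and 30.8% in mutant untreated and 32.4% in wild type untreated. Both shares separated fully by treatment, while the summed hexokinase level was also higher with oxLDL, at 167 and 179 CPM per kb in mutant oxLDL and 187 CPM per kb in wild type oxLDL, against 94.1 and 87.3 CPM per kb in mutant untreated and 111 CPM per kb in wild type untreated. Among phosphofructokinases, Pfkp took 68.3% and 64.9% in mutant oxLDL and 73.3% in wild type oxLDL, against 53.8% and 50.3% in mutant untreated and 47.8% in wild type untreated. Pfkl, the liver-type isozyme, took 19.6% and 23.4% (mutant) and 19.0% (wild type) with oxLDL, against 28.3% and 35.2% (mutant) and 37.1% (wild type) untreated, again without overlap. Summed phosphofructokinase was 50.6 and 49.8 (mutant) and 60.9 CPM per kb (wild type) with oxLDL, against 31.8 and 32.1 (mutant) and 27.3 CPM per kb (wild type) untreated, while Pfkl itself was at 9.92 and 11.7 (mutant) and 11.6 CPM per kb (wild type) with oxLDL, against 8.99 and 11.3 (mutant) and 10.1 CPM per kb (wild type) untreated. The level of Pfkl thus overlapped between treatments where its share did not. Aldolase was 98.0% or more Aldoa in every library.

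**Figure D3:**
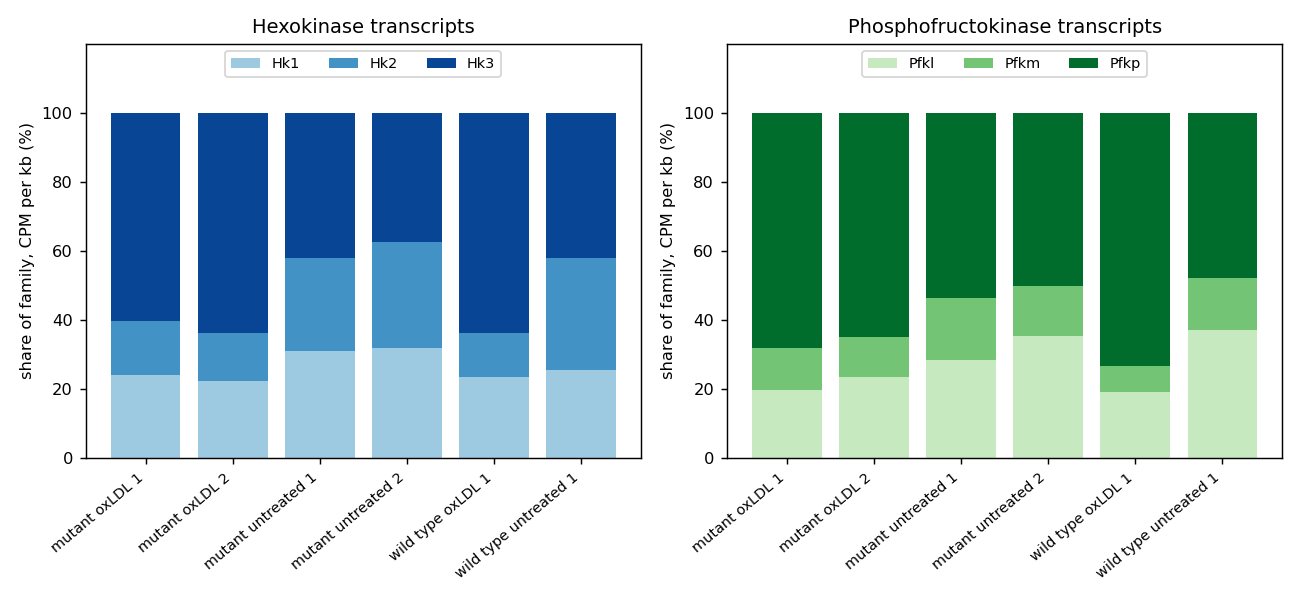
Share of each isozyme in the summed hexokinase and phosphofructokinase level per kilobase, in percent, 1 bar per library. The Hk3 and Pfkp segments are larger in the oxLDL bars of both genotypes.

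The lower part of the pathway, from Gapdh to Pkm, gave 3 genes that rose and 2 that did not pass of 5. Pgam1, phosphoglycerate mutase, showed the largest change of them, at 524 and 504 (mutant) and 515 CPM (wild type) with oxLDL, against 306 and 311 (mutant) and 194 CPM (wild type) untreated, with a log2 fold change of 0.96 ± 0.149 (edgeR adjusted p = 0.00334). Pgk1, which makes the first ATP of the pathway, was at 464.5 and 456 (mutant) and 516 CPM (wild type) with oxLDL, against 337 and 372 (mutant) and 276 CPM (wild type) untreated (log2 fold change 0.55 ± 0.130, edgeR adjusted p = 0.0159). In both genes every oxLDL library exceeded every untreated one. Pgk1 shares 67.5% and Pgam1 40.6% of their 75-base stretches with genes outside the table, so reads of such copies could have been counted for them. The same holds to a lesser extent for Bnip3l (19.9%), Bnip3 (14.4%) and Pkm (14.0%), whose values are uncertain to that degree. Pkm, pyruvate kinase of muscle type, was at 1797 and 1968 (mutant) and 2499 CPM (wild type) with oxLDL, against 1335 and 1429 (mutant) and 1252 CPM (wild type) untreated. Its groups did not overlap and the log2 fold change was 0.63 ± 0.150 (edgeR adjusted p = 0.0167), but without the wild type untreated library it was 0.44 and missed the threshold (adjusted p = 0.0533).

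Gapdh, the dehydrogenase at the centre of the pathway, was at 1935 and 1983 (mutant) and 2108 CPM (wild type) with oxLDL, against 1849 and 2057 (mutant) and 1614 CPM (wild type) untreated. The groups overlapped, and the log2 fold change of 0.13 ± 0.131 did not pass (edgeR adjusted p = 0.468). It shares 45.2% of its 75-base stretches with Gm12070, 3000002C10Rik and Gm5069, and adding their counts left the log2 fold change at 0.13 (adjusted p = 0.466). Eno1, enolase, was at 254 and 321 (mutant) and 399 CPM (wild type) with oxLDL, against 276 and 402 (mutant) and 240 CPM (wild type) untreated, with no separation (log2 fold change 0.08 ± 0.245, edgeR adjusted p = 0.815). Its near-identical copy Eno1b, which holds 43.5% of its 75-base stretches, was at 267 and 306 (mutant) and 217 CPM (wild type) with oxLDL, against 197 and 204 (mutant) and 97.6 CPM (wild type) untreated. Eno1b rose (log2 fold change 0.72 ± 0.147, edgeR adjusted p = 0.00906), and the pair summed gave 0.35, which did not pass (adjusted p = 0.205). How reads were divided between the 2 genes is therefore uncertain, and the values of each alone depend on it.

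**Figure D4:**
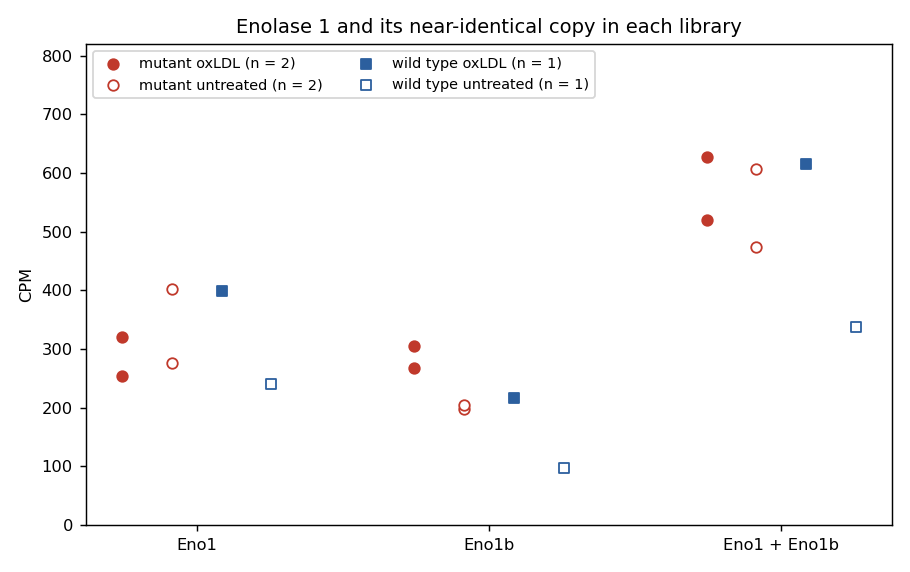
Level of Eno1, of its copy Eno1b and of the sum of both, in CPM, in each library. Eno1b separates by treatment, and Eno1 and the sum have overlapping points.

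None of the 4 genes of lactate and pyruvate handling passed. Ldha, which reduces pyruvate to lactate, was at 348 and 321 (mutant) and 430.1 CPM (wild type) with oxLDL, against 360 and 396 (mutant) and 279 CPM (wild type) untreated (log2 fold change 0.09 ± 0.173, edgeR adjusted p = 0.718). Both mutant oxLDL values lay below both mutant untreated ones while the wild type value was higher with oxLDL, so the treatments overlapped. Pdk1, a kinase that switches off pyruvate dehydrogenase, was at 31.2 and 32.5 (mutant) and 59.4 CPM (wild type) with oxLDL, against 28.5 and 39.6 (mutant) and 46.2 CPM (wild type) untreated (0.06 ± 0.158, adjusted p = 0.794). The lactate exporter Slc16a3 and the kinase Pdk3 had log2 fold changes of 0.38 ± 0.329 and 0.06 ± 0.201 and overlapped between treatments.

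Of the 2 enzymes that make and break the sugar bisphosphate activating phosphofructokinase, Pfkfb4 fell and Pfkfb3 did not pass. Pfkfb4 was at 19.55 and 22.1 (mutant) and 21.1 CPM (wild type) with oxLDL, against 29.7 and 30.4 (mutant) and 40.9 CPM (wild type) untreated. All oxLDL values lay below all untreated ones, with a log2 fold change of −0.67 ± 0.122 (edgeR adjusted p = 0.00588). Pfkfb3, the isozyme best known for promoting glycolysis, was at 96.2 and 106 (mutant) and 101 CPM (wild type) with oxLDL, against 83.7 and 134 (mutant) and 194 CPM (wild type) untreated. The mutant libraries overlapped, and the log2 fold change of −0.38 ± 0.232 did not pass (edgeR adjusted p = 0.234), though it did without mutant untreated replicate 1 (−0.63, adjusted p = 0.0288).

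Of the regulator and its sensors, 1 of 3 rose. Hif1a, the oxygen-regulated factor itself, was at 164 and 160.4 (mutant) and 171 CPM (wild type) with oxLDL, against 135 and 157 (mutant) and 145 CPM (wild type) untreated. All 3 oxLDL libraries lay above all 3 untreated, but the log2 fold change of 0.18 ± 0.0875 did not pass (edgeR adjusted p = 0.145). HIF-1α is controlled mainly at the protein level, which was not measured. Egln3, the hydroxylase known to be induced by HIF, was at 11.7 and 10.6 (mutant) and 12.3 CPM (wild type) with oxLDL, against 4.15 and 4.74 (mutant) and 1.33 CPM (wild type) untreated. It rose without overlap, by a log2 fold change of 1.89 ± 0.376 (edgeR adjusted p = 0.00855). Egln1, the main oxygen sensor, had a log2 fold change of 0.21 ± 0.0832, which did not pass (edgeR adjusted p = 0.0906).

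Among the other HIF targets, 6 of 12 rose, 2 fell and 4 did not pass. Vegfa, the secreted vascular growth factor, was at 50.2 and 30.1 (mutant) and 37.3 CPM (wild type) with oxLDL, against 8.38 and 7.36 (mutant) and 2.25 CPM (wild type) untreated. It averaged 39.2 ± 10.2 CPM with oxLDL and 6.00 ± 3.28 CPM untreated (SD, n = 3 each), a fold of 7.24 and a log2 fold change of 2.86 ± 0.381 (edgeR adjusted p = 0.00191). P4ha2, a catalytic subunit of collagen prolyl hydroxylase, was at 21.1 and 16.8 (mutant) and 23.8 CPM (wild type) with oxLDL, against 5.21 and 3.11 (mutant) and 1.89 CPM (wild type) untreated. These 2 genes had the largest rises of the members and both separated completely, and for P4ha2 the log2 fold change was 2.67 ± 0.345, a fold of 6.35 (edgeR adjusted p = 0.00172). Ero1l, the endoplasmic reticulum oxidase that forms disulfide bonds, was at 315 and 249.5 (mutant) and 212 CPM (wild type) with oxLDL, against 108 and 101.5 (mutant) and 74.9 CPM (wild type) untreated. Its log2 fold change was 1.45 ± 0.109, a fold of 2.74 (edgeR adjusted p = 0.000250), again without overlap.

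Mxi1, a repressor of MYC targets, was at 34.4 and 46.9 (mutant) and 46.5 CPM (wild type) with oxLDL, against 21.3 and 17.5 (mutant) and 18.5 CPM (wild type) untreated (log2 fold change 1.16 ± 0.156, edgeR adjusted p = 0.00195). Bnip3l, a receptor that marks mitochondria for autophagy, was at 188 and 193 (mutant) and 205 CPM (wild type) with oxLDL, against 124 and 99.8 (mutant) and 116 CPM (wild type) untreated (0.79 ± 0.0999, adjusted p = 0.00159). Kdm3a, a histone lysine demethylase, was at 111 and 122 (mutant) and 121 CPM (wild type) with oxLDL, against 80.6 and 76.6 (mutant) and 78.3 CPM (wild type) untreated (0.59 ± 0.0806, adjusted p = 0.00212). For each of these 3 genes every oxLDL library exceeded every untreated one.

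Ndrg1 and Adm went the other way. Ndrg1, a stress-responsive gene often used as a hypoxia marker, was at 125 and 212 (mutant) and 196 CPM (wild type) with oxLDL, against 263 and 471 (mutant) and 774.5 CPM (wild type) untreated. It fell without overlap, with a log2 fold change of −1.41 ± 0.319 (edgeR adjusted p = 0.0137), and missed the threshold without mutant untreated replicate 2 (−1.24, adjusted p = 0.0785) or without the wild type oxLDL library (−1.12, adjusted p = 0.0511). Adm, a secreted vasodilator peptide, had 1, 0 and 0 counts in the oxLDL libraries, mutant and then wild type, against 7, 45 and 16 counts in the untreated ones. Summed, it had 1 count with oxLDL and 68 counts untreated, a ratio of 0.0109 after allowing for depth (95% exact interval from counting error only, 0.000273 to 0.0631), and it was called lower (edgeR adjusted p = 0.00555). Bnip3, Higd1a, P4ha1 and Ankrd37 did not pass, with log2 fold changes between −0.05 and 0.29, Ankrd37 being near the floor at 0.446 to 2.11 CPM. Bnip3, a relative of Bnip3l, was at 28.6 and 37.75 (mutant) and 31.6 CPM (wild type) with oxLDL, against 24.4 and 27.0 (mutant) and 28.4 CPM (wild type) untreated.

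Taken in the mutant alone, 2 oxLDL libraries against 2 untreated, 14 of the 38 genes rose and 3 fell, against 16.5% and 19.1% of all genes tested. The genes that fell were Pfkfb4, Ndrg1 and Adm, with Ndrg1 at the margin (−1.13 ± 0.345 log2, edgeR adjusted p just under 0.05). Without mutant untreated replicate 2 the counts were 11 and 0. The median log2 fold change was 0.115 over the members and 0.012 over all genes. Pancreatic transcripts summed to 179 and 142 CPM in mutant oxLDL and to at most 0.0708 CPM in mutant untreated. That difference cannot be told apart from the oxLDL response in the mutant. The wild type arm, 1 library against 1, is described by size only, with no test. Of the 36 members at 5 CPM or more in either wild type library, 9 were at least 2-fold higher with oxLDL and 1 was at least 2-fold lower, against 7.92% and 11.7% of all genes at that level. The folds were 15.8 for Vegfa, 11.9 for P4ha2, 8.58 for Egln3, 3.41 for Pfkp, 2.82 for Ero1l, 2.65 for Pgam1, 2.56 for Hk3, 2.52 for Slc16a3 and 2.51 for Mxi1, and Ndrg1 was 3.96-fold lower. The median log2 fold change of the members in wild type was 0.624, against −0.003 over all genes. These comparisons share no libraries between genotypes, but the wild type one rests on 1 library in each treatment.

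**Figure D5:**
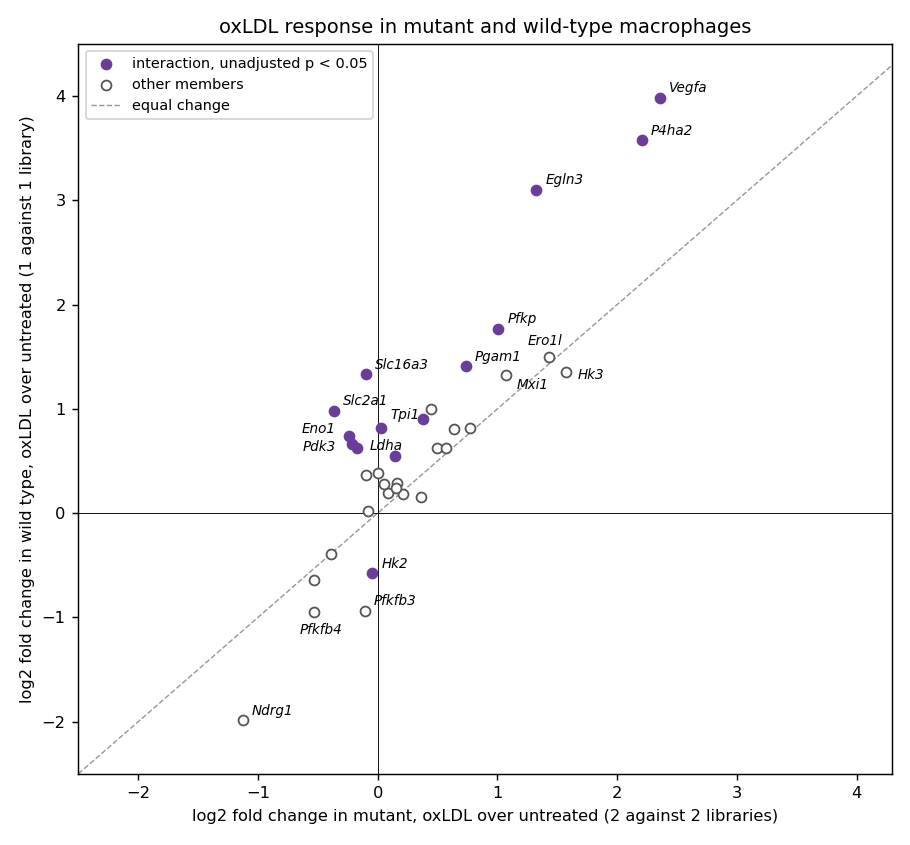
Log2 fold change of oxLDL over untreated in mutant cells, along the horizontal axis, against that in wild type cells, along the vertical axis, for the 36 genes at 5 CPM or more in either wild type library. Filled points are genes with an unadjusted interaction p under 0.05, most of which lie above the line of equal change.

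The difference between the genotypes in the oxLDL response was tested as an interaction in 1 model, mutant response minus wild type response. No member passed (edgeR, 0 of 38, against 0.489% of all genes), and 14 had an unadjusted p under 0.05, or 36.8% of the members, against 11.0% of all genes. DESeq2 called 1 member, Ldha, against 1.74% of all genes. Without the filter on low counts edgeR called 9 members, against 3.18% of 17143 genes. All 9 were negative (Egln3, Eno1, Ldha, P4ha2, Pfkp, Slc16a3, Slc2a1, Tpi1 and Vegfa). Of the 38, 28 had a negative estimate and 10 a positive one, and the median was −0.202 log2, against 0.032 over all genes. The share of negative estimates over all genes was not counted. Every estimate uses the same wild type libraries, 1 per treatment, so the signs of different genes are not separate observations. Of the 14 with an unadjusted p under 0.05, 13 were negative, Hk2 being the exception. Leading them was Egln3, with an interaction of −1.88 ± 0.343 (SE, edgeR unadjusted p = 0.00168, adjusted p = 0.140). Its log2 fold change was 1.32 in the mutant by edgeR. In wild type it was 3.10 as a difference of log2 CPM with prior count 2, so the 2 values do not subtract exactly to the interaction. Pfkp gave −0.77 ± 0.161 (adjusted p = 0.193), Ldha −0.80 ± 0.182 (adjusted p = 0.222), Tpi1 −0.79 ± 0.187 (adjusted p = 0.231) and Pgam1 −0.67 ± 0.163 (adjusted p = 0.241), all by edgeR. Hk2 gave 0.53 ± 0.152 (edgeR adjusted p = 0.299). Since the wild type arm is 1 library against 1, its spread is taken from the mutant pairs. The wild type untreated library had the highest neutrophil marker sum. Pancreatic transcripts summed to 179 and 142 CPM in mutant oxLDL and to 241 CPM in wild type untreated. In mutant untreated and wild type oxLDL they summed to at most 0.0708 CPM. The groups with and without them take opposite signs in the interaction, so that difference cannot be told apart from it. The part of either marker set in these values was not tested.

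Mutant against wild type across both treatments, 4 libraries against 2, gave no member called (edgeR, 0 of 38, against 4.05% of all genes), and 6 had an unadjusted p under 0.05, against 24.4% of all genes. DESeq2 called 2, Pdk1 (adjusted p = 0.0104) and Ero1l (adjusted p = 0.0194), against 11.9% of all genes. By edgeR Pdk1 was at −0.68 ± 0.163 log2, mutant lower (adjusted p = 0.0711), and Ero1l at 0.45 ± 0.116, mutant higher (adjusted p = 0.0825). Pdk3, Slc2a3, Aldoc and Pfkm followed with log2 fold changes of 0.75, 0.49, 0.45 and 0.34, all above 0 and none past the threshold. Pdk3 passed in edgeR with no filter on low counts (0.75, adjusted p = 0.0411) and without the wild type oxLDL library (1.22, adjusted p = 0.0301). The median over the 38 genes was −0.018 log2, against −0.009 over all genes.

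Genes of neighbouring pathways, from lists other than the members, are given by the same oxLDL comparison across genotypes, in which 19.1% of all genes tested rose and 21.4% fell. In the oxidative and non-oxidative pentose phosphate pathway, which branches from glycolysis at glucose phosphate, 4 of 8 genes tested rose and none fell. Taldo1, transaldolase, was at 400.2 and 559 (mutant) and 698 CPM (wild type) with oxLDL, against 119 and 123 (mutant) and 132 CPM (wild type) untreated (log2 fold change 2.13 ± 0.161, edgeR adjusted p = 0.000255), and G6pdx, which commits glucose to this pathway, rose by 1.02 ± 0.0887 log2 (adjusted p = 0.000404). Among 28 genes of pyruvate entry and the citrate cycle, 7 rose and 2 fell. Pdp1, the phosphatase that reactivates pyruvate dehydrogenase and so opposes the Pdk kinases, was at 63.6 and 68.65 (mutant) and 79.3 CPM (wild type) with oxLDL, against 23.2 and 20.5 (mutant) and 19.0 CPM (wild type) untreated (edgeR adjusted p = 0.000238).

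Of 16 genes of gluconeogenesis and glycogen, 7 rose and 3 fell, with the glycogen branching enzyme Gbe1 at 2.04 ± 0.171 log2 (edgeR adjusted p = 0.000349). Of 15 other glycolytic isozymes and transporters, 2 rose and 2 fell. Among these Eno2, the neuronal enolase, was at 27.5 and 27.2 (mutant) and 12.8 CPM (wild type) with oxLDL, against 9.79 and 7.36 (mutant) and 1.07 CPM (wild type) untreated (2.15 ± 0.353, adjusted p = 0.00408). The transporter Slc2a6 was lower, at 8.52 and 9.16 (mutant) and 3.90 CPM (wild type) with oxLDL, against 18.8 and 19.1 (mutant) and 12.3 CPM (wild type) untreated (−1.27 ± 0.151, adjusted p = 0.00128).

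Among 16 genes that regulate HIF, 1 rose and 3 fell. Hif3a, a related factor that can compete with HIF-1α, was at 0.0811 and 0.0495 (mutant) and 0.192 CPM (wild type) with oxLDL, against 3.27 and 4.10 (mutant) and 7.21 CPM (wild type) untreated, and no oxLDL value exceeds what 3 counts give in its library. Egln2, a further HIF prolyl hydroxylase, was at 30.2 and 33.8 (mutant) and 27.99 CPM (wild type) with oxLDL, against 51.2 and 72.25 (mutant) and 111 CPM (wild type) untreated (−1.29 ± 0.243, edgeR adjusted p = 0.00683). Of 28 further genes known to be induced by hypoxia, 10 rose and 5 fell across genotypes, with a median log2 fold change of −0.113. In the mutant alone 6 of these 28 rose and 8 fell, against 16.5% and 19.1% of all genes tested. Bhlhe41, a transcriptional repressor, was at 368 and 354 (mutant) and 302 CPM (wild type) with oxLDL, against 64.4 and 47.1 (mutant) and 31.6 CPM (wild type) untreated (2.88 ± 0.173, edgeR adjusted p = 0.000131). Lox, the enzyme that crosslinks collagen, went the other way, at 54.4 and 21.1 (mutant) and 26.1 CPM (wild type) with oxLDL, against 666 and 534.5 (mutant) and 499 CPM (wild type) untreated (−4.07 ± 0.360, edgeR adjusted p = 0.000430).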

How the data were processed

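RNA was measured in 6 libraries of mouse macrophages (mRNA selected, stranded, 250 ng RNA input, paired reads of 150 bases, per the labels' protocols). Reads were aligned with Bowtie2 2.1.0 and quantified with RSEM 1.2.15, and scaled with edgeR's TMM, per the submitters' processing notes, which name build hg19 although the symbols are mouse. Whether that build is the one behind the counts could not be settled, and no source used here gives the annotation. The authors deposited a gene table of expected counts from RSEM and a second table of TMM-scaled values, treated here as a signal, from which whole reads could be recovered. Of those values 100% came out whole within 1e-06, and a count test on those reads called 5127 genes with oxLDL across genotypes.

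Expected counts were rounded. Genes passing edgeR's filterByExpr (12689 of the 17143 with any count, and of 24054 in the table) were tested with edgeR 4.0.16 (quasi-likelihood, TMM) in R 4.3.3, with Benjamini-Hochberg adjustment over all of them and a threshold of 0.05. The oxLDL comparison across genotypes and the genotype comparison used genotype and treatment as terms, and the mutant comparison and the interaction used 4 group means. SE is the log2 fold change divided by the root of F. Wild type alone was described by size (prior count 2, at least 5 CPM). DESeq2 1.42.0 was an alternative. Shared 75-base stretches and transcript lengths come from GENCODE M21, and promoters from RefSeq. The 38 members and the lists were chosen with earlier results of these data known. Values in every library are given for called members, for members fixed by name and for the reaction steps not otherwise covered, and up to 4 genes of each other list are drawn from those with the smallest adjusted p. CPM are counts scaled to library size with TMM factors. Sampling floors are 3 counts and intervals cover counting error only.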

Additional observations from a re-analysis of the deposited data

How the results depend on the processing

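Across the alternatives tried, the count of members that rose with oxLDL across genotypes was 13 or 14, and 15 of the 18 called members stayed called in every setting that tested them, none changing direction. The exceptions, Aldoc, Pkm and Ndrg1, are given with their values in the report. Members that fell with oxLDL numbered 4, and between 2 and 4 when 1 library was left out, the lowest without mutant untreated replicate 2 or without the wild type oxLDL library. In the mutant, members that fell numbered 3, and between 0 and 3 with 1 library left out, the lowest again without mutant untreated replicate 2, where the genes called fell to 2626, against 4515 with all libraries. Members called for genotype numbered 0, but 2 with DESeq2 (Ero1l and Pdk1), 3 with no filter on low counts and between 0 and 3 with 1 library left out. All genes called for genotype numbered 514, against 1513 with DESeq2, 1387 with no filter and between 8 and 877 with 1 library left out. For the interaction, members called numbered 0, but 1 with DESeq2 (Ldha, −0.80, adjusted p = 0.0303), 9 with no filter, all negative, and between 0 and 1 with 1 library left out, and genes called numbered 62, against 221 with DESeq2, 546 with no filter and between 19 and 246 with 1 library left out. The interaction could not be fitted without either wild type library, and the cause of the changes with the filter was not tested.

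The labels give no pairing beyond a shared number in the titles, and same-numbered mutant libraries deviated together with a correlation of 0.247 over 12689 genes, for only 2 pairs. With a replicate block the interaction gave 1 member (Slc16a3, −1.43, adjusted p = 0.0355) and 162 genes, the other counts of members staying within 1.5 times, and the block could not be fitted for genotype, which it absorbs. Genes that did not pass and changed sign had log2 fold changes, with 1 library left out, of −0.37 to 0.52 for Slc2a1, −0.00 to 0.21 for Gapdh, −0.25 to 0.34 for Eno1, −0.18 to 0.21 for Ldha, −0.10 to 0.67 for Slc16a3, −0.11 to 0.25 for Pdk1, −0.22 to 0.16 for Pdk3 and −0.92 to 0.67 for Ankrd37, which was 0.01 with the replicate block. Library scalings moved the median of all genes by at most 0.046 log2. The count test on the recovered reads, which gave 14 members higher and 4 lower with oxLDL across genotypes, and the summing of near-identical copies were chosen after seeing the data.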
